A study of Nymphaea colorata and Nymphaea micrantha with 16 samples.

Results

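Gene expression in fully unfolded leaves of the nonviviparous water lily *Nymphaea colorata* was compared with that in its youngest leaves, as the change over the whole of leaf development in a species that forms no plantlets on its leaves. The genes described are those with at least 1 FPKM, the sequenced fragments of a gene scaled to its transcript length and to the depth of the library, in at least 2 of the 4 libraries compared. These were 16963 of the 31475 genes in the deposited table. The unfolded leaves are stage 4 (L4, 2 libraries), which the labels call maturity. The youngest leaves are stage 1 (L1, 2 libraries), which were still rolled up under water and measured 1 to 2 cm. Both groups were wild-type plants grown in containers, and each sample was a mixture of leaves from 6 plants, taken with the leaf nose.

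The series holds 16 leaf libraries from 8 groups, namely 4 stages of *N. colorata* (L) and the same 4 stages of *N. micrantha* (X), a viviparous species that raises plantlets on the leaf. Polyadenylated RNA was sequenced. Reads recovered on genes were 40152799 and 43092963 in the stage 4 libraries, and 51396108 and 43491066 in the stage 1 libraries. At that depth 15849 and 15905 genes reached 1 FPKM in stage 4 leaves, against 16262 and 16190 in stage 1 leaves. Nothing in the labels says that the 2 libraries of a group came from separate sets of plants, so the p-values measure the spread between libraries. That spread was estimated from all 16 libraries of both species together. Whole leaves were sequenced in bulk, so fewer cells of a type and less RNA per cell cannot be told apart in any result below.

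A young leaf grows by cell division, for which cells copy their DNA, pack it on histones and separate it on a spindle moved by kinesins. A mature leaf lives by photosynthesis, in which antenna proteins pass light to photosystems I and II, the oxygen evolving complex splits water, and the enzyme Rubisco fixes carbon dioxide in the reductive pentose-phosphate cycle. In water lilies the young blade is rolled and submerged, and opens at the water surface into air and full light. Plant hormones such as auxin, cytokinin, gibberellin, ethylene and abscisic acid act along this course.

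Differences are given as log2 fold changes on the log2(FPKM + 1) scale, stage 4 minus stage 1, which understates the change of genes with low values. They were tested with limma, and a gene was called where the Benjamini-Hochberg adjusted p was under 0.05 and the change was 1 or more in size on that scale. By this rule 2769 genes were called higher in stage 4 leaves, 16.3% of those tested, and 3553 genes were called lower, 20.9%, which makes 37.3% in either direction. Both stage 4 libraries lay above both stage 1 libraries in 33.5% of the genes and below them in 51.2%. The median change was 1.83 among the genes called higher and -1.63 among those called lower. Changes of at least 4 on the log2 scale were found for 251 genes called higher and 316 called lower. No read was found in either stage 1 library for 70 genes called higher, and none in either stage 4 library for 75 genes called lower. For 1 called gene the libraries of the stages overlapped.

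The excess of lower calls depended on scaling. FPKM is a share of a library. In stage 4 leaves the 10 genes with most reads took 6.30% and 6.22% of all reads, against 4.86% and 3.72% in stage 1 leaves. The part of these genes in the excess was not tested. The median gene stood at -0.23. With median-ratio scaling of the libraries the median moved up by 0.21 to -0.03, and 19.2% of genes were called higher and 16.3% lower. All 2769 genes called higher before scaling were also called higher after it, 2762 genes were called lower both times, and 0 genes changed side. Calls of single genes named below held under this scaling unless said otherwise.

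**Figure D1:**
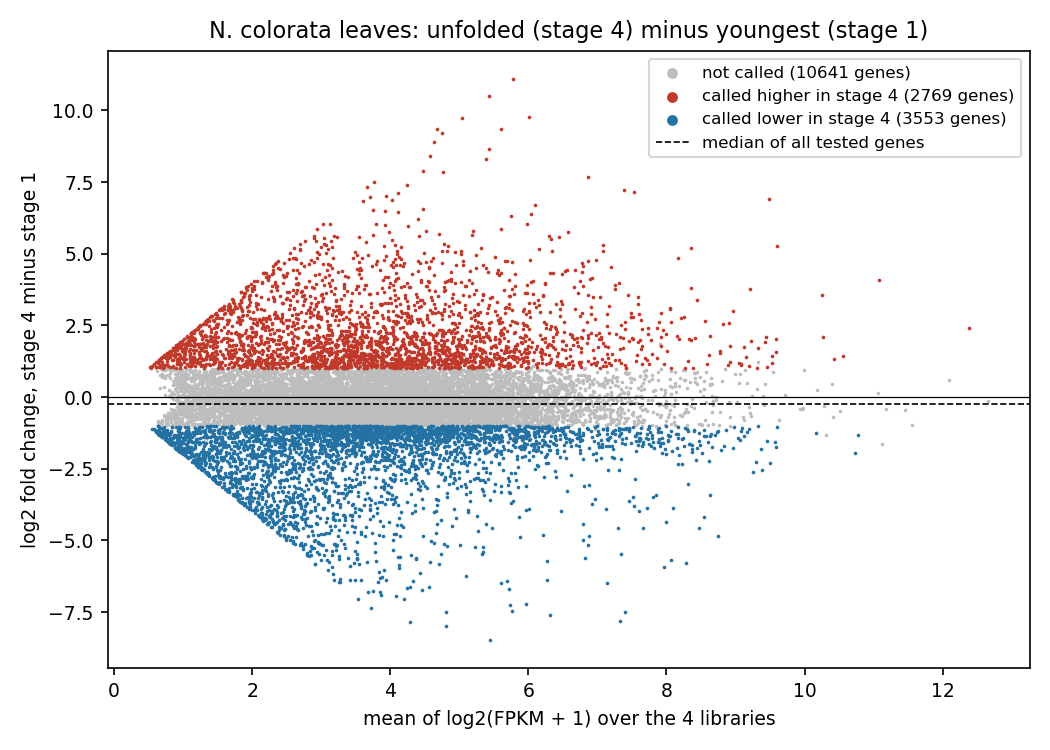
Log2 fold change (stage 4 minus stage 1, vertical axis) against the mean of log2(FPKM + 1) over the 4 libraries (horizontal axis) for the 16963 tested genes of *N. colorata*, red for the 2769 called higher, blue for the 3553 called lower and grey for the rest. The dashed line is the median of all tested genes, at -0.23, and the largest changes reach 11.10 upward and -8.47 downward.

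Names of genes are not in the deposited table, which lists IDs only. Functions were taken from the gene lists of the study, 73 lists with 748 genes, of which 609 were tested here. These are KEGG pathways and Gene Ontology (GO) terms, plus the auxin response factor (ARF) and SAUR genes printed in its text. The text prints the ARF ID in a shorter form, which was taken here to mean NC2G0286500 of the KEGG hormone list. The study assembled them from genes that differed between the species in these same libraries, so each list holds part of a pathway and its direction is not independent evidence. Each list is therefore described by its counts and median beside those of all tested genes, with no test of the list.

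**Figure D2:**
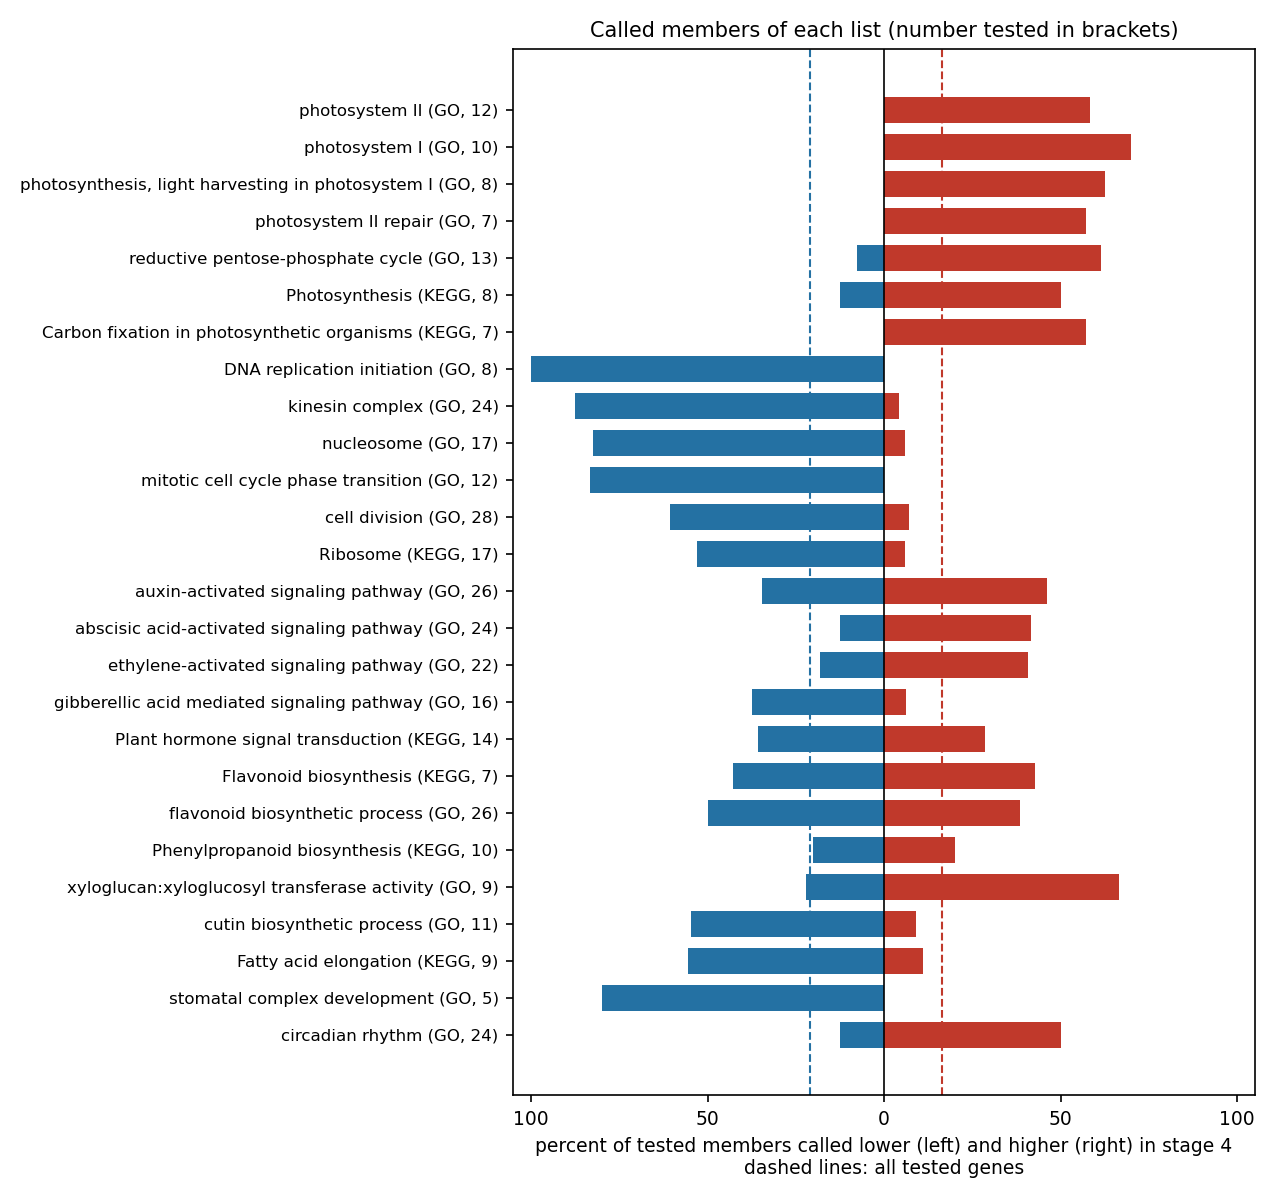
Percent of the tested members of each list called higher (red, to the right) or lower (blue, to the left) in stage 4 leaves, with the number tested in brackets after the source of the list. The dashed lines mark all tested genes, 16.3% called higher and 20.9% called lower, and the photosystem I, photosystem II and light harvesting lists have no member on the lower side.

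Many genes of the photosynthetic light reactions were higher in the unfolded leaves. Of the 12 tested members of the photosystem II list 7 were called higher and 0 lower, with a median log2 fold change of 1.47. The photosystem I list had 7 of 10 called higher and a median of 1.57, and light harvesting in photosystem I had 5 of 8 called higher and a median of 1.35. None of these lists had a member called lower. The 3 lists share members. Summed over the 8 light harvesting genes, which also serve as the check that these are photosynthetic leaves, the level was 5677 and 3864 FPKM in the stage 4 libraries, against 2419 and 1336 FPKM in the stage 1 libraries.

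NC3G0227450 was the member of the KEGG antenna protein list. Its level was 439 and 319 FPKM in stage 4 leaves, against 177 and 95.5 FPKM in stage 1 leaves. Both unfolded libraries lay above both young ones, and the log2 fold change was 1.52 with a standard error (SE) of 0.34 and an adjusted p of 0.00209 by limma. Another light harvesting gene, NC2G0033530, was at 1239 and 835 FPKM in stage 4 and 424 and 215 FPKM in stage 1 leaves, a log2 fold change of 1.75 (adjusted p = 0.00243). The member that changed most in the light harvesting list was NC5G0051170, which is also annotated to responses to far red, red and blue light. It had 715 and 696 FPKM in stage 4 leaves, against 29.0 and 4.60 FPKM in stage 1 leaves, with a log2 fold change of 5.77 (SE 0.73). In the young leaves it was the lowest of its list, and in the unfolded leaves it lay among the others. NC7G0246810 did not pass the test, with 953 and 481 FPKM in stage 4 and 576 and 402 FPKM in stage 1 leaves and a log2 fold change of 0.49.

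The largest change in both photosystem lists was that of NC1G0107750, which is annotated to photoprotection and to the regulation of chlorophyll synthesis. Its level was 198 and 862 FPKM in the stage 4 libraries, against 0.515 and 1.08 FPKM in the stage 1 libraries. The unfolded libraries differed from each other by more than any light harvesting gene named above, yet both lay far above the young ones, and the log2 fold change was 7.86 (SE 0.65, adjusted p = 1.10e-06). At stages 2 and 3 it was still between 4.59 and 6.50 FPKM.

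In the KEGG Photosynthesis list 8 of 11 genes were tested, 4 were called higher and 1 lower, with a median of 0.96. Without the second stage 1 library 2 were called higher. NC10G0233820 had 619.7 and 579 FPKM in stage 4 leaves, against 176 and 103 FPKM in stage 1 leaves, a log2 fold change of 2.14 (adjusted p = 3.43e-04). NC2G0005510 rose by 1.72 and NC11G0115830, a gene of the oxygen evolving complex, by 1.71. The values behind the second were 1297 and 1041 FPKM in stage 4 and 612 and 206 FPKM in stage 1 leaves. It and NC1G0306410 (1.23), also of that complex, were no longer called without the second stage 1 library, with log2 fold changes of 0.92 and 0.86, and NC1G0306410 was not called without the first stage 4 library either (1.10). NC9G0272520, another gene of the complex, was low throughout, with 3.56 and 4.59 FPKM in stage 4 and 9.08 and 9.97 FPKM in stage 1 leaves. It was called lower (-1.06), a call lost with median-ratio scaling (-0.85) and when the first stage 4 library (-0.91) or the second stage 1 library (-1.0) was left out. The 3 members that did not pass were NC9G0272490 (0.69), NC1G0101390 (-0.32) and NC2G0042540 (-0.84).

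The whole list of the oxygen evolving complex had 5 of 13 tested members called higher and 1 lower, with a median of 0.80. Only 1 of its members was called higher without the second stage 1 library and 2 without the first stage 4 library. The stage 1 libraries themselves differed, since the first was higher than the second in summed light harvesting genes (given above) and in the oxygen evolving complex, at 1764 and 903 FPKM. The part of that difference in the calls was not tested beyond leaving each library out. Photosystem II repair, by which damaged reaction centres are rebuilt, had 4 of 7 called higher and a median of 2.01. Its largest change was that of NC1G0106560, with 48.2 and 55.0 FPKM in stage 4 and 8.22 and 6.84 FPKM in stage 1 leaves (2.63). The chlorophyll synthesis list of GO had 1 of 8 called higher, 1 lower and a median of 0.15, and the KEGG list of porphyrin and chlorophyll metabolism had 2 of 6 called higher, 0 lower and a median of 0.32. The GO list thus had 12.5% called in each direction, under the 16.3% and 20.9% of all tested genes. In the GO list 2 were called higher without the first stage 4 library and 0 lower without the first stage 1 library. In the repair list 1 was called lower without the second stage 1 library.

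Most carbon fixation genes tested were higher as well. In the list of the reductive pentose-phosphate cycle 8 of 13 tested members were called higher and 1 lower, with a median log2 fold change of 2.05. The KEGG carbon fixation list, which shares members with it, had 4 of 7 called higher, 0 lower and a median of 1.97. NC7G0247280, annotated to Rubisco activity, was among the most abundant transcripts, with 13168 and 11311 FPKM in stage 4 leaves and 4177 and 1282 FPKM in stage 1 leaves. The young libraries differed from each other by more than 3-fold, both unfolded libraries lay above them, and the log2 fold change of 2.40 had an SE of 0.72 (adjusted p = 0.0118). The call was lost without the second stage 1 library (1.55), without the first stage 4 library (2.29) and when no filter was set on low values (2.40). At stage 3 the gene already stood at 19521 and 11087 FPKM.

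The other genes with the Rubisco term were low. NC10G0232730 did not pass (0.70), with 20.4 and 20.3 FPKM in stage 4 and 11.5 and 12.7 FPKM in stage 1 leaves. NC3G0206580, with 1.52 and 1.07 FPKM in stage 4 and 4.04 and 3.16 FPKM in stage 1 leaves, was called lower at -1.0, right at the threshold, and lost the call with median-ratio scaling (-0.83) and with a pseudocount of 0.1 (-1.41), so the lower call of the cycle list rests on it. It also lost it without the second stage 4 library (-0.86), without the first stage 1 library (-0.86) and in voom on recovered reads (-1.49).

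NC10G0045250 is annotated to the pentose-phosphate cycle and to protein bridging and enzyme binding. It had 4236 and 4109.7 FPKM in stage 4 leaves, against 458 and 275 FPKM in stage 1 leaves, the largest log2 fold change of its list at 3.55 (adjusted p = 1.45e-05). NC13G0025630, of carbon fixation and sucrose synthesis, had 80.5 and 88.0 FPKM in stage 4 and 19.5 and 6.44 FPKM in stage 1 leaves (2.79). NC8G0216270, annotated as a fructose-bisphosphate aldolase, the enzyme that joins or splits sugar phosphates in the cycle and in glycolysis, had 142 and 216 FPKM in stage 4 and 51.4 and 37.9 FPKM in stage 1 leaves (1.97). NC2G0285280 had no read in either stage 1 library and 3.92 and 7.13 FPKM in the stage 4 libraries, at least 56.8-fold higher than a floor of 3 reads in each stage 1 library. NC2G0054460 (0.64) and NC4G0151900 (0.01) did not pass.

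A gene outside these lists that concerns carbon dioxide is NC9G0146480, annotated as a carbonate dehydratase, the enzyme that interconverts carbon dioxide and bicarbonate. Its level was 2479 and 1672 FPKM in stage 4 leaves, against 19.6 and 8.08 FPKM in stage 1 leaves. The log2 fold change was 7.22 (SE 0.64, adjusted p = 1.89e-06), and at stage 3 the gene was still at 104 and 42.3 FPKM.

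Genes of cell division were lower in the unfolded leaves. All 8 genes of DNA replication initiation were called lower, with a median log2 fold change of -3.80. Their summed level was 13.2 and 7.20 FPKM in stage 4 leaves, against 199 and 263 FPKM in stage 1 leaves. NC1G0181280, a DNA helicase gene of the MCM complex, which unwinds DNA at replication origins, had 1.24 and 0.493 FPKM in stage 4 libraries, against 36.9 and 44.3 FPKM in stage 1 libraries (-4.50, SE 0.36, adjusted p = 8.64e-07). The values of NC4G0153740 were close to these, with a log2 fold change of -4.45. The smallest change of the list was that of NC2G0006680, at 1.63 and 1.44 FPKM in stage 4 and 5.16 and 7.63 FPKM in stage 1 leaves (-1.52). NC3G0243820, annotated as a ribonucleoside-diphosphate reductase, which makes the building blocks of DNA, was lower by the same order, with 1.52 and 4.18 FPKM in stage 4 and 69.2 and 90.9 FPKM in stage 1 leaves (-4.47).

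Histone genes were lower as well. In the nucleosome list 14 of 17 tested members were called lower and 1 higher, with a median of -2.22. The higher call was lost without the second stage 4 or the first stage 1 library. The list summed to 1158 and 1058 FPKM in stage 4 leaves, against 9095 and 11817 FPKM in stage 1 leaves. NC5G0051050 alone had 11.9 and 7.73 FPKM in unfolded leaves, against 1998 and 2901 FPKM in young leaves, a log2 fold change of -7.83 (adjusted p = 2.57e-06). NC5G0050880 was as abundant in the young leaves, at 1999.5 and 2701 FPKM, but kept 89.1 and 69.7 FPKM in the unfolded ones (-4.86). NC10G0145430 changed by -7.21. Histone genes often exist as near-identical copies, and how the counting shared reads between copies is not given, so the values of single histone genes are uncertain.

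Kinesins and cyclins followed the same direction. In the kinesin complex list 21 of 24 tested members were called lower and 1 higher, with a median of -2.85. NC11G0115860, annotated to spindle assembly and the phragmoplast, where the new cell wall forms, had 0.432 and 0.255 FPKM in stage 4 leaves, against 38.5 and 49.7 FPKM in stage 1 leaves (-5.06, adjusted p = 3.66e-07). The exception was NC6G0257440, which has the terms of a microtubule motor with none for the spindle or division. It was called higher, with 149.8 and 68.5 FPKM in stage 4 and 19.5 and 28.1 FPKM in stage 1 leaves (2.07). Of the mitotic phase transition list 10 of 12 were called lower and 0 higher (median -2.04). NC8G0213590, annotated as a regulator of cyclin-dependent kinase, was at 0.494 and 0.50 FPKM in stage 4 and 74.1 and 89.8 FPKM in stage 1 leaves (-5.78). NC9G0168960, in the same list and in the KEGG hormone pathway, was at 5.39 and 5.08 FPKM in stage 4 and 87.9 and 110.2 FPKM in stage 1 leaves (-4.00).

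The broader cell division list had 17 of 28 called lower and 2 higher (median -1.70), and cytokinesis by cell plate formation 3 of 8 called lower and 0 higher (median -0.84). Ribosomal protein genes were lower too, with 9 of 17 called lower, 1 higher and a median of -1.29. Without the second library of stage 4 or of stage 1, 2 were called higher. They summed to 1241 and 1128 FPKM in stage 4 leaves, against 3023 and 3152 FPKM in stage 1 leaves. NC14G0157560, of the large cytosolic subunit, was at 139 and 127 FPKM in stage 4 and 425 and 519 FPKM in stage 1 leaves (-1.81). NC10G0232740, the member called higher, is also annotated to the plastid, and had 14.2 and 14.3 FPKM in stage 4 and 4.07 and 4.18 FPKM in stage 1 leaves (1.57). Ribosome biogenesis, the making of ribosomes, had 2 of 15 called lower, 0 higher and a median of -0.36. Its 13.3% called lower was under the 20.9% of all tested genes. With median-ratio scaling 2 ribosomal protein genes were called higher, and 1 gene of ribosome biogenesis was called lower.

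**Figure D3:**
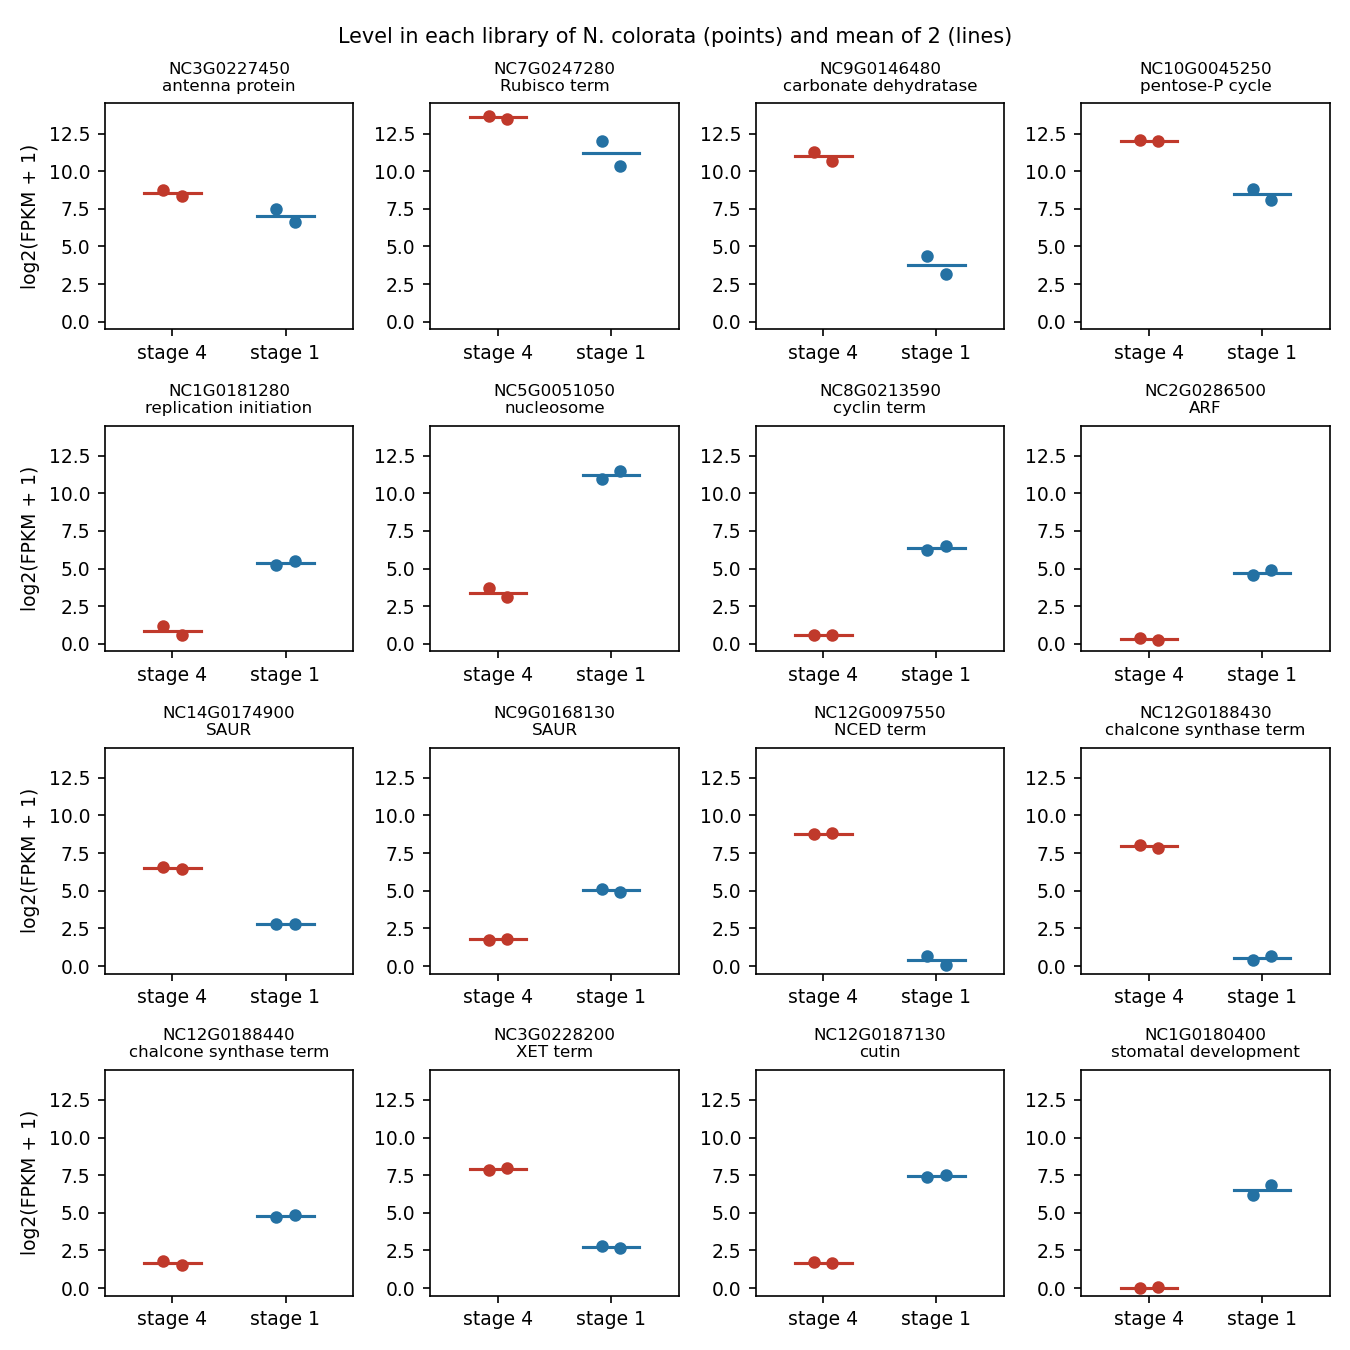
Level of 16 named genes, as log2(FPKM + 1), in each of the 2 stage 4 libraries (red, left) and 2 stage 1 libraries (blue, right) of *N. colorata*, with the mean as a line. The genes were picked among called ones, 8 higher at stage 4 and 8 higher at stage 1, and in none do the libraries of the stages overlap. Most tested genes share this, with both stage 4 libraries above both stage 1 libraries in 33.5% and below them in 51.2%. The stage 1 libraries are furthest apart for NC7G0247280, with 4177 and 1282 FPKM.

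Hormone genes moved in both directions. In the KEGG list of plant hormone signal transduction 14 of 18 genes were tested, 4 were called higher and 5 lower, and the median was -0.45. The ARF gene of the list, NC2G0286500, is annotated to vascular patterning and meristem development. ARF proteins are the transcription factors through which auxin acts. It had 0.301 and 0.181 FPKM in stage 4 leaves, against 22.4 and 29.2 FPKM in stage 1 leaves, a log2 fold change of -4.42 (SE 0.44, adjusted p = 4.14e-06). Its level was already down to 6.38 and 2.42 FPKM at stage 2.

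The 4 SAUR genes, small auxin-induced transcripts linked to cell expansion, split. NC14G0174900 had 94.7 and 84.9 FPKM in stage 4 leaves, against 5.86 and 5.97 FPKM in stage 1 leaves (3.71, adjusted p = 1.94e-04). NC263970 was at 9.12 and 7.37 FPKM in stage 4 and 0.426 and 0.396 FPKM in stage 1 leaves (2.71), and NC7G0235790 at 19.3 and 18.2 FPKM in stage 4 and 7.47 and 8.45 FPKM in stage 1 leaves (1.14). So 3 of the 4 were called higher in the unfolded leaves. The fourth, NC9G0168130, was called lower, with 2.29 and 2.53 FPKM in stage 4 leaves, against 34.3 and 29.3 FPKM in stage 1 leaves (-3.26, adjusted p = 2.79e-06).

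Among the other members of the KEGG list, NC9G0170260, which GO annotates to defence, fell most, with 0.654 and 0.0469 FPKM in stage 4 and 45.1 and 77.3 FPKM in stage 1 leaves (-5.51). NC7G0030990, annotated as an indole-3-acetic acid amido synthetase, an enzyme that couples auxin to amino acids, was low but called higher, with 1.19 and 1.31 FPKM in stage 4 and 0.0944 and 0.0944 FPKM in stage 1 leaves (1.04). NC11G0241560 was called lower at -1.01, a call lost with median-ratio scaling (-0.81) and without the second library of stage 4 (-0.92) or of stage 1 (-0.97). The members that did not pass were NC8G0240630 (0.71), NC8G0240640 (0.61), NC8G0217610, a histidine kinase (-0.34), NC9G0272150 (-0.56) and NC1G0179090 (-0.78).

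In the wider GO lists, auxin-activated signaling had 12 of 26 called higher and 9 lower (median 0.64), so that most of its members changed but not to 1 side. The auxin efflux carrier NC8G0125740, which moves auxin out of cells, had 0.865 and 0.682 FPKM in stage 4 leaves, against 36.3 and 50.7 FPKM in stage 1 leaves (-4.63). The indole-3-acetic acid amido synthetases had 3 of 6 called higher and 1 lower. Cytokinin signaling had 2 of 13 called higher and 2 lower (median -0.08). That is 15.4% in each direction, no more than the 16.3% and 20.9% of all tested genes. The largest change of the cytokinin list was that of NC6G0039670, a histidine phosphotransfer protein, with 82.5 and 139 FPKM in stage 4 and 1.88 and 1.08 FPKM in stage 1 leaves (5.47). Gibberellin signaling had 1 of 16 called higher and 6 lower (median -0.05). Its largest change was that of NC1G0065270, also annotated to redox homeostasis, which had 0.0680 and 0.0845 FPKM in stage 4 and 108 and 68.9 FPKM in stage 1 leaves (-6.34). Brassinosteroid signaling had 3 of 11 called higher and 4 lower. With median-ratio scaling 1 cytokinin gene was called lower and the median was 0.14, and 2 gibberellin genes were called higher and 5 lower with a median of 0.12. Without the first stage 4 library 1 cytokinin gene was called lower, and without the second 2 gibberellin genes were called higher. Jasmonate signaling had 2 of 14 called higher (14.3%) and 4 lower (28.6%), near the shares of all tested genes. That balance turned round to 4 higher and 2 lower with median-ratio scaling. Without the first stage 4 or the second stage 1 library 2 jasmonate genes were called lower.

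Ethylene and abscisic acid lists leaned to the unfolded leaves. Ethylene signaling had 9 of 22 called higher and 4 lower (median 0.58), and abscisic acid signaling 10 of 24 higher and 3 lower (median 0.75). The 9-cis-epoxycarotenoid dioxygenases, which cut carotenoids at the committed step to abscisic acid, had 4 of 5 called higher, 0 lower and a summed level of 587 and 634 FPKM in stage 4 leaves, against 74.6 and 77.1 FPKM in stage 1 leaves. Most of that sum was NC12G0097550, with 427 and 456 FPKM in stage 4 and 0.621 and 0.0367 FPKM in stage 1 leaves (8.41, SE 0.38, adjusted p = 2.19e-08). NC1G0104330, annotated to positive regulation of abscisic acid signaling and to immunity, had 59.0 and 66.8 FPKM in stage 4 and 1.19 and 0.931 FPKM in stage 1 leaves (4.96). NC4G0020890, a monooxygenase of abscisic acid metabolism, was higher by 2.05.

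Flavonoid genes divided within families. In the KEGG flavonoid list 7 of 9 genes were tested, 3 were called higher and 3 lower (median 0.51). The GO list of flavonoid biosynthesis had 10 of 26 called higher and 13 lower (median -0.88), so nearly every member changed. The 5 genes with chalcone synthase activity, the entry enzyme of the flavonoid pathway, have IDs from NC12G0188410 to NC12G0188480. NC12G0188430 had 266 and 225 FPKM in stage 4 leaves, against 0.335 and 0.574 FPKM in stage 1 leaves (7.40, adjusted p = 3.30e-08). NC12G0188420 was at 19.1 and 13.6 FPKM in stage 4 and 0 and 0.0712 FPKM in stage 1 leaves (4.05), and NC12G0188410 at 60.9 and 30.6 FPKM in stage 4 and 3.54 and 4.09 FPKM in stage 1 leaves (3.20). These were the members called higher. In contrast, NC12G0188440 had 2.49 and 1.89 FPKM in stage 4 leaves, against 25.2 and 27.4 FPKM in stage 1 leaves (-3.10, adjusted p = 3.09e-07), and NC12G0188480 had 19.8 and 15.0 FPKM in stage 4 and 110.1 and 42.5 FPKM in stage 1 leaves (-1.93). Summed over the family the level was 368 and 286 FPKM in stage 4 leaves, against 139 and 74.6 FPKM in stage 1 leaves. Their neighbouring numbers may mark near-identical copies, between which the counting could have split reads, so the values of single members are uncertain.

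The 3 genes of the KEGG flavonoid list called lower act elsewhere in the pathway. NC7G0277620, with the flavonoid 3'-monooxygenase term, an enzyme that adds a hydroxyl group to the flavonoid ring, had 0.468 and 0.291 FPKM in stage 4 leaves, against 9.02 and 18.9 FPKM in stage 1 leaves (-3.36). NC9G0147080, with the naringenin 3-dioxygenase term, an enzyme of a later step, had 39.8 and 32.8 FPKM in stage 4 and 158 and 111 FPKM in stage 1 leaves (-1.85). NC3G0226660, a hydroxycinnamoyltransferase of the shared phenylpropanoid path, had 1.96 and 1.16 FPKM in stage 4 and 19.7 and 39.5 FPKM in stage 1 leaves (-3.52). NC1G0182570 did not pass (0.51). Other genes with the same terms did not all fall. The flavonoid 3'-monooxygenase list of GO had 1 of 3 tested members called higher (2.78) and 2 lower. The shikimate hydroxycinnamoyltransferase list had 1 of 6 called higher and 3 lower, with changes between -3.52 and 4.22. Over all tested genes 16.3% were called higher and 20.9% lower.

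In the KEGG phenylpropanoid list, whose products include lignin, 10 of 15 genes were tested, 2 were called higher and 2 lower (median -0.01), shares near those of all genes. NC3G0225220, annotated to lignin synthesis and circadian rhythm, was the most abundant, with 298 and 368 FPKM in stage 4 leaves, against 95.2 and 62.1 FPKM in stage 1 leaves (2.09, adjusted p = 1.66e-04). NC1G0306140, a beta-glucosidase, was called higher from low values (1.45), and the peroxidase NC4G0238150 was called lower (-2.06), as was NC3G0226660. NC4G0237070, a phenylalanine ammonia-lyase, which opens the pathway, did not pass (-0.21). Nor did NC10G0145170 (0.18), NC3G0203180 (-0.38), NC4G0051810 (-0.85) and NC8G0215660 (0.79). The lignin list of GO had 7 of 22 called higher and 4 lower (median 0.31). Its peroxidase list had 7 of 18 called higher and 5 lower (median 0.33). Beta-glucosidases had 1 of 5 called higher and 1 lower (median -0.02). That is 20.0% in each direction, near the 16.3% and 20.9% of all tested genes. The beta-glucosidases summed to 47.3 and 42.7 FPKM in stage 4 leaves, against 152 and 157 FPKM in stage 1 leaves. Of the 3 phenylalanine ammonia-lyase genes tested 0 were called higher and 1 lower, against 1 higher and 0 lower with median-ratio scaling. The lower call was also lost without the first stage 4 library, and 1 gene was called higher without the second.

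Cell wall genes differed by family. Xyloglucan:xyloglucosyl transferases, which cut and rejoin the wall's xyloglucan chains, had 6 of 9 called higher and 2 lower, with a median of 1.88. Without the second library of stage 4 or of stage 1 only 1 was called lower. They summed to 730.3 and 688 FPKM in stage 4 leaves, against 107 and 157 FPKM in stage 1 leaves. NC3G0228200 had 226 and 253 FPKM in stage 4 leaves, against 5.98 and 5.22 FPKM in stage 1 leaves (5.19, adjusted p = 9.41e-05), and NC12G0189050 had 188 and 189 FPKM in stage 4 and 4.92 and 4.26 FPKM in stage 1 leaves (5.09). NC3G0228200 was already at 161 and 222 FPKM at stage 3.

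Cellulose synthase genes had 6 of 14 called higher and 3 lower (median 0.75). NC11G0118720 had 27.3 and 19.5 FPKM in stage 4 leaves and no read in either stage 1 library, so it was at least 115-fold higher than a floor of 3 reads per library. NC5G0158920, also annotated to mannan synthesis and primary wall formation, had 0.388 and 0.263 FPKM in stage 4 leaves, against 49.3 and 55.9 FPKM in stage 1 leaves (-5.34). Members of the family thus differed in direction. Pectinesterases, which remove methyl groups from pectin, had 5 of 12 called higher and 3 lower, and spanned changes between -7.06 in NC12G0189680 and 5.27 in NC11G0057970. NC12G0189680 had 0 and 0.0134 FPKM in stage 4 and 173 and 103 FPKM in stage 1 leaves. Secondary wall formation had 7 of 13 called higher and 3 lower (median 1.35).

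Lists of the leaf surface differed in direction. Cutin synthesis, which makes the polyester of the cuticle, had 6 of 11 called lower and 1 higher (median -1.04), and cuticle development 4 of 8 called lower and 0 higher. NC12G0187130, in both lists and in the wax list, had 2.26 and 2.23 FPKM in stage 4 leaves, against 168 and 179 FPKM in stage 1 leaves (-5.75, SE 0.29, adjusted p = 3.55e-08). Wax synthesis had 3 of 12 called higher and 5 lower. The KEGG list of cutin, suberine and wax had 2 of 4 called higher and 1 lower (median 0.81). Without the first stage 4 library 2 cuticle genes and 3 wax genes were called lower. Fatty acid elongation, which builds the long chains of waxes, had 5 of 9 called lower and 1 higher (median -1.07). NC2G0004190 and NC3G0206690 carry the same long-chain oxoacyl reductase terms and changed in opposite directions. The first had 3.89 and 1.01 FPKM in stage 4 and 61.8 and 78.2 FPKM in stage 1 leaves (-4.49), and the second 90.8 and 53.7 FPKM in stage 4 and 0.0953 and 0.0375 FPKM in stage 1 leaves (6.05).

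Lists of development genes for other tissues of the whole leaf are described next, and their sums were not taken as amounts of a tissue. Stomatal complex development had 4 of 5 tested members called lower and 0 higher (median -1.98), and its 8 genes summed to 12.1 and 17.5 FPKM in stage 4 leaves, against 157 and 207 FPKM in stage 1 leaves. In the stage 4 libraries 5 and 4 of these genes were at 0, against 0 and 1 in the stage 1 libraries. NC1G0180400 had 0 and 0.0566 FPKM in stage 4 and 70.7 and 113 FPKM in stage 1 leaves (-6.46). NC1G0135060, annotated to guard cell differentiation, had no read at stage 4 and 31.1 and 30.2 FPKM at stage 1, at least 329-fold above a floor of 3 reads per stage 4 library. It was still at 58.4 and 70.1 FPKM at stage 2 and differed between the stage 3 libraries, at 0.212 and 25.0 FPKM.

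Phloem development had 2 of 4 called lower and 0 higher, with sums of 19.8 and 17.9 FPKM at stage 4 and 104 and 148 FPKM at stage 1. The member with the highest level at stage 1 was NC1G0106420, with 0.0332 and 0.348 FPKM in stage 4 leaves, against 45.1 and 87.0 FPKM in stage 1 leaves (-5.75). Xylem development had 2 of 9 called lower and 0 higher (sums of 135 and 147 FPKM at stage 4 and 179 and 197 FPKM at stage 1), trichome differentiation 2 of 6 higher and 2 lower (sums of 52.2 and 54.6 FPKM at stage 4 and 53.8 and 59.7 FPKM at stage 1) and meristem maintenance 1 of 4 higher and 1 lower (sums of 59.6 and 60.6 FPKM at stage 4 and 59.5 and 52.6 FPKM at stage 1). Maintenance of shoot apical meristem identity had 3 of 9 higher and 1 lower. Its sums were 143 and 155 FPKM at stage 4 and 103 and 104 FPKM at stage 1. For xylem the 22.2% called lower was near the 20.9% of all tested genes. Without the second stage 4 library 1 xylem gene was called lower, and 1 was called higher without the first stage 4 or the second stage 1 library. The sums of the stomatal and phloem development lists were thus lower at stage 4 than at stage 1. Those of trichome differentiation and meristem maintenance differed less. The phloem sum was still at 111 and 97.5 FPKM in the stage 3 libraries. The part of tissue make-up in the results above was not tested.

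Genes annotated to circadian rhythm, the daily clock, leaned to the unfolded leaves, with 12 of 24 called higher, 3 lower and a median of 0.82. Most of the summed level came from NC7G0236450, also annotated to the chloroplast, with 2026 and 2413 FPKM in stage 4 leaves, against 28.2 and 7.23 FPKM in stage 1 leaves (7.16, adjusted p = 2.96e-06). The hour of sampling is not given in the sources used here. Leaf senescence had 6 of 19 called higher and 6 lower, response to hypoxia 2 of 5 higher and 1 lower, and water channels 1 of 7 higher and 2 lower. Over all tested genes 16.3% were called higher and 20.9% lower. The shares of water channels (14.3% and 28.6%) and of hypoxia genes called lower (20.0%) were near these. The lower call among hypoxia genes was lost with median-ratio scaling and without either stage 4 library or the first stage 1 library. For water channels 4 were called lower without the second stage 4 library, and 1 with median-ratio scaling or without the first library of stage 4 or of stage 1. NC12G0093360, a water channel, had 4.40 and 2.97 FPKM in stage 4 and 146 and 176 FPKM in stage 1 leaves (-5.12). NC1G0088830, a sucrose synthase, the enzyme that splits sucrose for use in sink tissue, had 83.3 and 195 FPKM in stage 4 and 0.783 and 0.0920 FPKM in stage 1 leaves (6.52).

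Several of the largest changes were in genes with no function in the sources used. NC8G0214130 had 2436 and 2711 FPKM in stage 4 leaves, against 0.0754 and 0.267 FPKM in stage 1 leaves, the largest log2 fold change of all tested genes at 11.10 (SE 0.16, adjusted p = 6.05e-13). Its neighbour by ID, NC8G0214140, had 599.8 and 718 FPKM at stage 4 and no read at stage 1, at least 2670-fold above a floor of 3 reads per library. Both were still below 1 FPKM in all libraries of stages 2 and 3, so they appeared between stages 3 and 4. NC11G0244170 had 2909 and 921 FPKM in stage 4 and 0.129 and 0.130 FPKM in stage 1 leaves (10.50), and NC2G0005110 had 1182 and 3064 FPKM in stage 4 and 0.127 and 3.20 FPKM in stage 1 leaves (9.77). By difference of level the leading genes included NC5G0050660, with 8582 and 9303 FPKM in stage 4 leaves, against 609 and 443 FPKM in stage 1 leaves (4.10). NC2G0004400 followed the same course, with 6824 and 9057 FPKM in stage 4 and 132 and 30.9 FPKM in stage 1 leaves (6.91), as did NC9G0276530, with 4588 and 5091 FPKM in stage 4 and 203 and 76.3 FPKM in stage 1 leaves (5.27).

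In the other direction, NC9G0111740 had 0.914 and 1.77 FPKM in stage 4 leaves, against 761 and 872 FPKM in stage 1 leaves, the most negative log2 fold change at -8.47 (adjusted p = 2.99e-07). NC1G0133680, annotated as a glutathione transferase, an enzyme of detoxification, had 0.544 and 0.987 FPKM in stage 4 and 339.8 and 588 FPKM in stage 1 leaves (-8.00). The largest fall in level was that of NC9G0173960, annotated to defence against fungi, with 1112 and 664 FPKM in stage 4 and 2956 and 3780.4 FPKM in stage 1 leaves (-1.96), a call lost without the second stage 4 library (-1.59).

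The middle stages showed when the groups parted. At stage 2 the list medians were within 0.76 of stage 1 for the photosystem, replication, kinesin and nucleosome lists. At stage 3, when the leaf tip reached the surface, DNA replication initiation stood at -2.89 relative to stage 1 and kinesins at -2.05, against -3.80 and -2.85 at stage 4. Photosystem II genes were at 0.74, 0.51 and 1.47 at stages 2, 3 and 4. The pentose-phosphate cycle took steps of 0.58, 1.13 and 2.05 from stage 1. Cutin synthesis was at 0.18 at stage 3 and -1.04 at stage 4. All these differences are set against the same stage 1 libraries and carry no test.

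**Figure D4:**
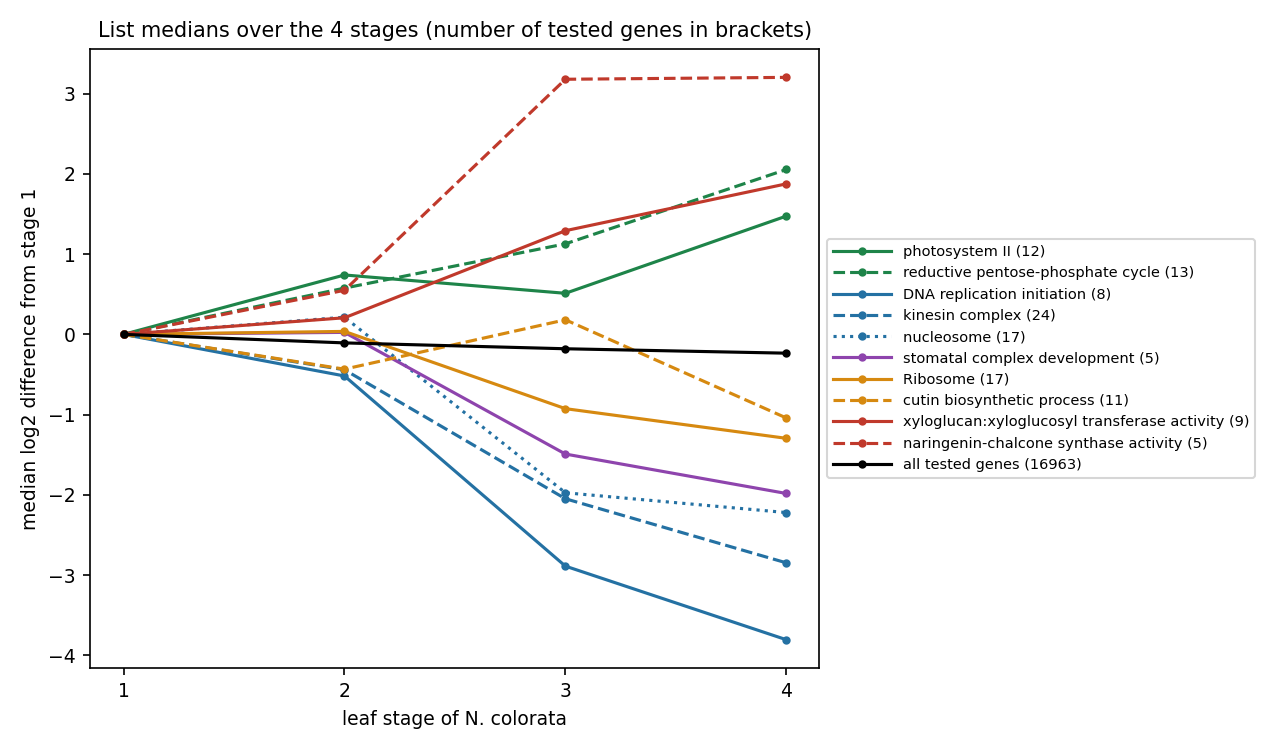
Median log2 difference from stage 1 (vertical axis) of 10 lists and of all tested genes at the 4 leaf stages of *N. colorata* (horizontal axis), from the mean of 2 libraries at each stage. At stages 3 and 4 DNA replication initiation lies furthest below the line of all genes, at -2.89 and -3.80. The chalcone synthase list lies furthest above it, at 3.18 and 3.20, and the photosystem II list rises most between stages 3 and 4, to 1.47.

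The stage change of *N. colorata* was set against that of *N. micrantha* by the difference between them (L minus X) in the same limma fit. In 10.4% of the tested genes the change was called more positive in *N. colorata* and in 14.9% more negative, 25.3% in all. With median-ratio scaling the change was called more positive in 12.7% and more negative in 10.9%. In *N. micrantha* itself 12.0% of these genes were called higher at stage 4 and 9.82% lower. Its libraries were shallower than those of *N. colorata*. Reads recovered on genes were 27636095 and 26723220 at its stage 4 and 29972823 and 24815075 at its stage 1. The part of depth in the differences was not tested. The genes were filtered on the *N. colorata* libraries alone, and 761 of them had no read in the stage 4 and stage 1 libraries of *N. micrantha*. Of the 4288 differences called, 266 were in such genes, for which the difference restates the change in *N. colorata*. Whether these genes are silent there or were not counted in that species was not tested.

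Photosynthesis lists held more genes called more positive than more negative in *N. colorata*, except carotenoid biosynthesis, whose only tested gene was called more negative. All 12 tested photosystem II genes, all 10 of photosystem I and all 8 of light harvesting were called more positive in *N. colorata*, with and without scaling. Over all tested genes the share was 10.4%, and these 3 lists share members. The study chose the listed genes for a difference between the species in these libraries. The counts of all lists compared here are therefore partly set by that choice and are no separate evidence. The other lists had fewer, with 4 of 8 more positive and 1 more negative in KEGG Photosynthesis, 8 of 13 and 1 in the oxygen evolving complex, 6 of 7 and 0 in photosystem II repair, 2 of 8 and 0 in chlorophyll synthesis, 2 of 6 and 1 in porphyrin and chlorophyll metabolism, and 1 of 3 and 0 in Rubisco activity. In the light harvesting list 5 members were called higher and 0 lower at stage 4 in *N. colorata*, and 0 higher and 6 lower in *N. micrantha*. The antenna gene NC3G0227450 had 211 and 163 FPKM in stage 4 leaves of *N. micrantha*, against 411 and 669 FPKM in its stage 1 leaves. The log2 fold changes were thus 1.52 in *N. colorata* and -1.49 in *N. micrantha*, a difference of 3.01 (SE 0.48, adjusted p = 9.05e-04). For NC7G0246810 the difference was 2.95, for NC2G0033530 3.52, for NC5G0051170 4.82 and for the photoprotection gene NC1G0107750 8.04. NC11G0115830 of the oxygen evolving complex differed by 3.07. The stage 1 libraries of *N. micrantha* differed from each other as well, with summed light harvesting genes at 4274 and 7741 FPKM, and those of stage 4 were at 1962 and 1650.0 FPKM.

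In carbon fixation the cycle list had 10 of 13 genes called more positive in *N. colorata*. NC7G0247280, with the Rubisco term, differed by 3.33 (SE 1.02, adjusted p = 0.0252), a call lost when either stage 4 library (3.22 and 3.44) or the second stage 1 library (2.48) was left out, with no filter on low values, and in a fit of only the libraries compared. NC10G0045250 differed by 2.75 and the carbonate dehydratase NC9G0146480 by 5.90. Replication initiation genes were lower at stage 4 in both species, with 8 called lower in *N. colorata* and 6 in *N. micrantha*, and 7 were called more negative in *N. colorata*. NC1G0181280 differed by -1.96, a call lost without the second stage 4 library (-1.66), and the histone gene NC5G0051050 by -4.30. The kinesin called higher in *N. colorata*, NC6G0257440, was called lower in *N. micrantha*, and differed by 3.50.

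Other genes also differed, among them a phloem and an elongation gene with calls in opposite directions. The phloem gene NC1G0106420 had 37.2 and 52.5 FPKM in stage 4 leaves of *N. micrantha*, against 4.29 and 1.42 FPKM in its stage 1 leaves, a log2 fold change of 3.66 that differed from that of *N. colorata* by -9.41 (SE 0.59, adjusted p = 2.51e-06). The elongation gene NC1G0108160, a very-long-chain ketoacyl synthase, was called lower in *N. colorata* (-2.32) and higher in *N. micrantha* (1.18), a difference of -3.50. The chalcone synthase NC12G0188410 differed by 4.01. The cutin gene NC12G0187130 did not pass in *N. micrantha* (-0.58) and differed by -5.16. The phenylalanine ammonia-lyase NC4G0237070 and NC1G0182570 were called higher in *N. micrantha* alone and differed by -2.97 and -1.88.

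For the auxin genes, the ARF NC2G0286500 had a change more negative in *N. colorata* than in *N. micrantha*, by -3.62 (adjusted p = 0.00131), and the SAUR NC263970 differed by 2.66. The abscisic acid gene NC12G0097550 rose in both species, and its difference of 1.99 turned to -0.24 in voom on recovered reads (-0.020 with median-ratio scaling added), so no direction is given for it. NC8G0214130 had no read in the stage 4 and stage 1 libraries of *N. micrantha*, and its difference is that of *N. colorata* alone, 11.10. The difference of the defence gene NC9G0173960 did not pass the test (-1.57).

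**Figure D5:**
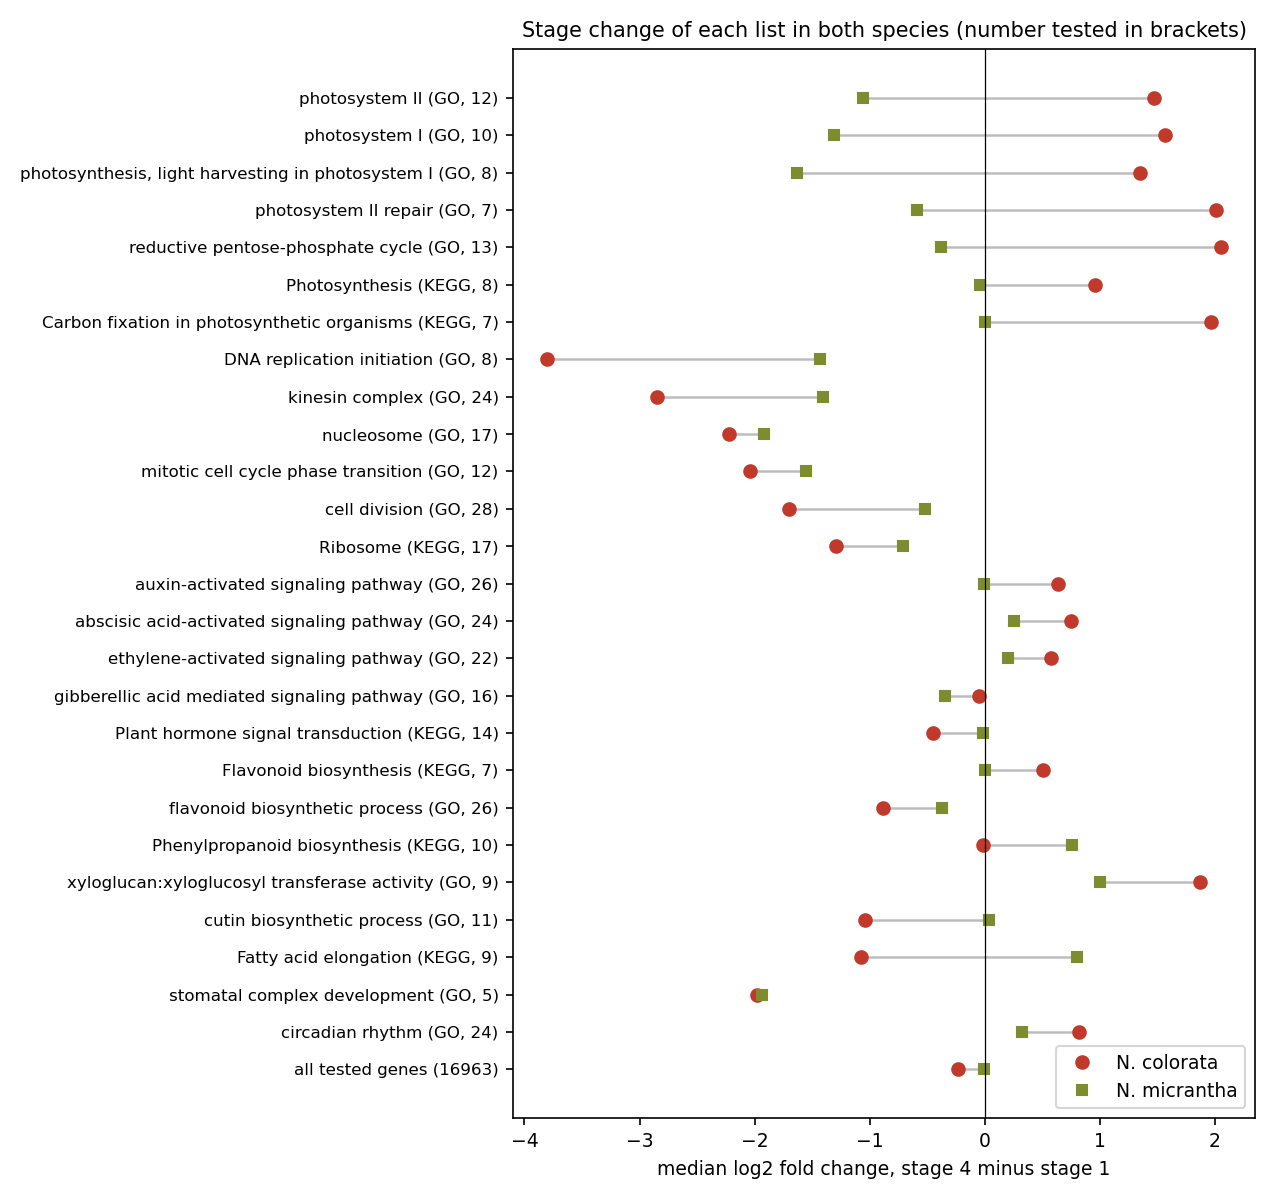
Median log2 fold change (stage 4 minus stage 1) of each list in *N. colorata* (red circles) and *N. micrantha* (green squares), with the number of tested genes in brackets and all tested genes in the bottom row. The photosystem and light harvesting medians lie above zero in *N. colorata* and below it in *N. micrantha*, and the division medians lie below zero in both.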

How the data were processed

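Leaf RNA of 16 libraries was measured, of which the 4 of stages 4 and 1 of *N. colorata* were compared. The authors deposited FPKM values per gene in 1 table, and the submitters' processing notes name fastp 0.20.0, HISAT2 2.1.0, HTSeq 0.7.2 and Cufflinks 2.2.1. The genome build, annotation, strand setting and treatment of shared reads are not given in the sources used here, and the stated number of biological repeats exceeds the 2 libraries per group. FPKM was the deposited unit, so no count model was the main test. Values were whole multiples of what a single read adds, and 100.0% of 308923 values above 0 came out whole within 0.001 reads. The recovered reads gave depth and an alternative test.

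Values were tested as log2(FPKM + 1) in limma 3.58.1 (R 4.3.3), fitting all 16 libraries with 1 coefficient for every group (8 in all), 8 residual degrees of freedom, and moderated variances with a trend. All groups thus shared 1 spread per gene, although their replicates agreed to different degrees. The standard deviation of the log2 difference between the 2 libraries of a group ran from 0.24 in X3 to 0.63 in X2. It was 0.32 in L4, 0.37 in L1, 0.30 in X4 and 0.52 in X1. Genes needed at least 1 FPKM in 2 of the 4 libraries. P-values were adjusted over all tested genes by Benjamini-Hochberg. On simulated data of 16724 genes for this comparison 99.0% of raised and 93.8% of lowered genes were called, with 6 unchanged genes called. Only a small set of genes was changed there (197 of them tested), all by the same fold, with the same spread set for all genes and libraries. In the real data more genes were called and the spread differs, so these rates do not measure the error of the calls above.

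Alternatives were another pseudocount (0.1), no filter or a filter on all libraries, median-ratio scaling, fits on fewer groups, the replicate number as a block, each library left out and, chosen after seeing the data, voom on recovered reads. The genes named were the 10 called genes with the largest and smallest log2 fold change and difference of mean FPKM, the tested members of 6 KEGG lists with the ARF and SAUR genes, and in other lists the 3 largest called changes in each direction and the most abundant member. Of these, a selection is printed, and the few outside the rule were chosen after their values were seen. The comparison, members and lists were chosen with earlier results of these data known. The reference table held no matching IDs, so names, coordinates and sequences were not used here.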

Additional observations from a re-analysis of the deposited data

Results flagged for a closer look

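For 23 named genes the stage change was tested for a difference between *N. colorata* and *N. micrantha* (L minus X, on the log2(FPKM + 1) scale), and 22 passed by limma's adjusted p with a difference of at least 1. Over all tested genes 25.3% passed. Many of the 23 were named for a large change in *N. colorata*, which the difference contains, so their count is a description and no support for a difference in general. In 6 of the genes the species had calls in opposite directions.

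Among photosynthesis genes the differences were 4.82 for NC5G0051170, 3.52 for NC2G0033530, 3.01 for NC3G0227450 and 2.95 for NC7G0246810, all of light harvesting. They were 8.04 for NC1G0107750 of photoprotection, 3.07 for NC11G0115830 of the oxygen evolving complex, 3.33 for NC7G0247280 with the Rubisco term, 2.75 for NC10G0045250 of the pentose-phosphate cycle and 5.90 for the carbonate dehydratase NC9G0146480.

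Among division genes they were -1.96 for NC1G0181280 of replication initiation, 3.50 for the kinesin NC6G0257440 and -4.30 for the histone gene NC5G0051050. Among hormone genes they were 2.66 for the SAUR gene NC263970, -3.62 for the ARF gene NC2G0286500 and 1.99 for NC12G0097550 of abscisic acid synthesis, a sign that turned in voom on recovered reads (-0.24).

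In secondary metabolism and the leaf surface they were 4.01 for the chalcone synthase NC12G0188410, -1.88 for NC1G0182570, -2.97 for the phenylalanine ammonia-lyase NC4G0237070, -5.16 for the cutin gene NC12G0187130 and -3.50 for the ketoacyl synthase NC1G0108160. The phloem gene NC1G0106420 differed by -9.41 and NC8G0214130, with no function in the lists, by 11.10, which is its change in *N. colorata* alone since it had no read in the stage 4 and stage 1 libraries of *N. micrantha*.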

How the results depend on the processing

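The count of genes called between stage 4 and stage 1 leaves stayed within 1.5 times under every alternative run, with 2577 to 2873 called higher and 3285 to 3773 lower when a library was left out. For the difference between the species these ranges were 1313 to 1783 more positive and 1881 to 2574 more negative. Only libraries of *N. colorata* were left out, so the dependence of the differences on single *N. micrantha* libraries was not tested. Voom on recovered reads, chosen after seeing the data, called 3053 genes higher and 4044 lower, or 3580 and 3138 with median-ratio scaling. With the replicate number as a block 2767 were called higher and 3555 lower, and no call of a named gene changed. Same-numbered libraries deviated with a correlation of only 0.01 over genes, for stages 4 and 1 of *N. colorata*, so the numbers were not taken to pair these libraries, and pairs with *N. micrantha* were not measured. Of 1386 values for 99 named genes 1361 kept direction and side of the threshold, 20 lost the call, 5 gained it and 0 turned round. For the differences between the species 289 of 299 values for 23 genes held and 8 lost the call, and NC12G0097550 turned to -0.24 with voom and -0.020 with voom and scaling. The cause was not tested. Small list counts moved most, such as water channels called lower (4 without the second stage 4 library, 1 without the first). With 2 libraries per group, small changes and genes near 1 FPKM are limited by depth and by the spread between libraries.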
